A study of Mus musculus with 18 samples.

Results

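Of 14979 KDM2A sites of WT B cells, 792 lay inside protein-coding genes and away from every transcription start site (TSS), and these distal intragenic sites are described here. They were chosen by the WT KDM2A peak lists. Peaks of the 3 WT lists on chromosomes 1 to 19 were merged wherever they shared at least 1 bp, and a merged site was kept when at least 2 lists held a peak. Its centre had to lie in the body of a protein-coding gene and more than 10 kb from any TSS of the GENCODE M21 annotation. Of the other sites, 10166 had their centre within 2 kb of a TSS and are called promoter sites. A further 805 lay in no gene and more than 10 kb from any TSS and are called distal intergenic sites, and 3216 belonged to neither kind.

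The ChIP-seq libraries came from primary splenic B cells of mice, either Mir155-sufficient (WT) or Mir155-deficient (KO), with 3 libraries per genotype for KDM2A and 3 for H3K36me2. Cells of both genotypes received anti-CD40, an F(ab')2 fragment against IgM and IL-4, and spent 2 days at 1% O2. Replicate 1 of each group was labelled male and the other replicates female, the mice were on a C57BL/6J background, and ages were not given per library. By sex, replicate 1 came from another animal than replicates 2 and 3, while the labels did not say whether replicates 2 and 3 came from separate animals or cultures. P-values measure the spread between these libraries, which for replicates 2 and 3 may be technical.

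KDM2A is a demethylase that removes methyl groups from lysine 36 of histone H3, with H3K36me2, the dimethylated form, as its main substrate. Its CXXC zinc finger binds CpG dinucleotides that carry no DNA methylation, which places it mostly at the CpG islands of promoters. H3K36me2 is laid down broadly over gene bodies and between genes by enzymes such as NSD1. Distal sites inside genes allow the enzyme and its substrate to be compared away from promoters. MiR-155, the microRNA missing in KO cells, is induced in activated B cells.

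The base sequences at a few of these sites show the contrast with promoters. Each is the 300 bp around the site centre on the plus strand of GRCm38, read from the RefSeq sequence of GRCm38.p6, with every CpG in capitals. Among sites in all 3 WT lists, Gm20388 and Hivep3 had the highest mean WT KDM2A fold, and Fibcd1 and Etv6 the highest of those without a KO peak. Abtb2 had the highest KO fold among sites present in all 6 lists, and Prkce had the largest fall in H3K36me2 coverage among sites where the genotypes did not overlap.

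Gm20388, chr8:120703941-120704240: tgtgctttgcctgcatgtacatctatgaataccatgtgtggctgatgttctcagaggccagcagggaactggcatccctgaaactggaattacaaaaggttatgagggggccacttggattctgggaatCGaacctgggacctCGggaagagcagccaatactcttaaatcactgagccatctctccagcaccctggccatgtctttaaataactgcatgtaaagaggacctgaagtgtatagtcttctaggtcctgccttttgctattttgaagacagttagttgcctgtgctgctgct
Hivep3, chr4:119959789-119960088: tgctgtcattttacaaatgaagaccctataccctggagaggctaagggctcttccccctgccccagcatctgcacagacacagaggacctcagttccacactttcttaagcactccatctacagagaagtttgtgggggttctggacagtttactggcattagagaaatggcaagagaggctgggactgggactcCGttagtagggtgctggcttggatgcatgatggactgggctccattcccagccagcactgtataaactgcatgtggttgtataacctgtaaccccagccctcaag
Fibcd1, chr2:31822873-31823172: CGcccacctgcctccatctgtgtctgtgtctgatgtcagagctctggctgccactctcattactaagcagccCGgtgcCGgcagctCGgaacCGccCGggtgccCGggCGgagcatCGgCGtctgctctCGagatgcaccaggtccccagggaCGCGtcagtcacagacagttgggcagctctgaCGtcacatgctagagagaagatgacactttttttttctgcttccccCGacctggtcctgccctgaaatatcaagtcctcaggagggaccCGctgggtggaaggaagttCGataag
Etv6, chr6:134220341-134220640: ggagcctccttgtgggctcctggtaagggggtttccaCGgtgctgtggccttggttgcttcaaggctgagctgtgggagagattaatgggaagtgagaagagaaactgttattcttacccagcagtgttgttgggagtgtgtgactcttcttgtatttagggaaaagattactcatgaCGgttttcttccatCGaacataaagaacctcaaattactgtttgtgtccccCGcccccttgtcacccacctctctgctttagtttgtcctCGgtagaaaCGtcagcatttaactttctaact
Abtb2, chr2:103662024-103662323: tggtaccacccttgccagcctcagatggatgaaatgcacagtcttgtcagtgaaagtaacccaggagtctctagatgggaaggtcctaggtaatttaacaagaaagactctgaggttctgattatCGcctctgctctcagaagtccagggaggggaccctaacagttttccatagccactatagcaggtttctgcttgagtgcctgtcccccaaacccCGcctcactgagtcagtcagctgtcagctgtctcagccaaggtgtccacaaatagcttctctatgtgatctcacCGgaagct
Prkce, chr17:86301526-86301825: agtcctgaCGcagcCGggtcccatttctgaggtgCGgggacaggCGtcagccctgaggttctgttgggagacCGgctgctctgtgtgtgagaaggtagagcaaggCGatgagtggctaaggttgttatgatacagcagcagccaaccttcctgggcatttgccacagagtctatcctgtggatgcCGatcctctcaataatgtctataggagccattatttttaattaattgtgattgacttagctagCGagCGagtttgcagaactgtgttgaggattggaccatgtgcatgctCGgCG

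CpG dinucleotides were few at 4 of these 6 sites. The Hivep3 stretch held 1, Gm20388 held 2, Abtb2 held 3 and Etv6 held 6. The Prkce stretch held 11. Fibcd1 held 17 and was the only one of the 6 that lay at a CpG island. An island was called in unmasked bases where a run longer than 200 bp reached 50% GC and had an observed to expected CpG ratio above 0.6.

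The same contrast held over all 792 sites. The central 300 bp held a median of 4 CpG at the distal intragenic sites (range 0 to 38) and 20 at the promoter sites. It was 4 at the distal intergenic sites, and 2 over the 1674720 tiles of 300 bp cut from the gene sequence that could have held a site. This eligible sequence, protein-coding gene bodies more than 10 kb from any TSS, came to 506.0 Mb. Only 25 distal intragenic sites, 3.16%, overlapped a CpG island, against 77.8% of promoter sites and 8.07% of distal intergenic sites. The mean GC content was 50.6% at the sites, 61.4% at promoter sites and 41.8% over the tiles. Repeat-masked bases made up 16.7% of the sequence at the sites, 8.68% at promoter sites and 28.5% of the tiles. In these values the sites had more CpG than eligible gene sequence as a whole and far less than promoters. Positions in the genome are not replicates, and these values are given without a test.

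Short motifs of B cell transcription factors were counted in the same 300 bp, as matches on either strand. CAGCTG, the E-box form bound by E2A, occurred at 25% of the sites, 16.8% of promoter sites, 21.1% of distal intergenic sites and 11.2% of the tiles. TGTGGTT, bound by RUNX factors, occurred at 8.96%, 4.02%, 9.57% and 6.92% in the same order. GGAAGT, an ETS core, occurred at 22.7%, 21.5%, 25.1% and 16.4%. TGANTCA, bound by AP-1, occurred at 10.5%, 4.60%, 11.4% and 9.04%. GGGNNTTCC, bound by NF-kB, occurred at 6.57%, 6.79%, 9.32% and 2.82%. ACGTG, the core bound by hypoxia-inducible factors, occurred at 16.04%, 23.3%, 16.1% and 11.3%. The remaining motifs searched were the composite of ETS and IRF (GGAANNGAA), with 10.1%, 6.68%, 10.8% and 9.31%, and the interferon response element (GAAANNGAA), with 7.95%, 5.82%, 8.70% and 11.3%. The EBF1 motif (CCCNNGGGA) occurred at 8.08%, 9.29%, 6.71% and 2.76%, the octamer (ATGCAAAT) at 2.40%, 0.807%, 1.61% and 2.45%, and a part of the CTCF motif (AGNNGGCNC) at 19.1%, 28.6%, 16.5% and 10.1%. E2A, RUNX and AP-1 matches were more frequent at the sites than at promoters and hypoxia cores less frequent, while NF-kB and ETS shares were nearer to those of promoters than of distal intergenic sites. A match is a run of letters, not a bound site, and motifs rich in G and C occur more often in richer sequence.

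Of the sequences printed, Abtb2 held AP-1 and E2A matches, Hivep3 held a RUNX match, and Etv6 held ETS and NF-kB matches and the part of the CTCF motif. Fibcd1 held ETS and EBF1 matches. Gm20388 held the composite of ETS and IRF and the part of the CTCF motif, and Prkce held none of the 11 motifs searched besides CpG.

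The sites were mostly intronic, and the intron share of eligible sequence was not measured. Their median width was 1304.5 bp (range 263 to 8917), against 1424 bp at promoter sites and 1258 bp at distal intergenic sites. The median distance of the distal intragenic sites to the nearest TSS was 16553.5 bp (range 10003 to 291809). In 721 of 792 (91.0%) the centre lay in an intron, in 30 (3.79%) in a coding exon and in 41 (5.18%) in a part of an exon outside the coding sequence. Among the intronic sites 262 were in the first intron and 151 in the second intron of the longest transcript there. The host genes were long, with a median length of 97796 bp, and the 10 kb limit itself favours long genes. The site nearest to the limit on the inside was in Dglucy, chr12:100840076-100840590, 10003 bp from a TSS, with a peak in 2 WT lists and a mean fold of 2.74. The nearest on the outside was in Coro2a, chr4:46555873-46557035, at 9986 bp, with 2 lists and a mean fold of 2.69.

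The KDM2A fold is the authors' enrichment over input for the strongest peak at a site. Because these values took part in choosing the sites, they are a description without a test. The median fold, averaged over the WT lists with a peak, was 2.73 at the distal intragenic sites, 2.99 at promoter sites and 2.76 at distal intergenic sites. A peak was present in all 3 WT lists at 251 sites (31.7%) and in only 2 at 541 (68.3%), whereas 68.4% of promoter sites were in all 3 lists. The median fold was 2.83 at sites in 3 lists and 2.68 at sites in 2. Another 6231 merged intervals in the same gene sequence had a peak in 1 WT list only, with a median fold of 2.60, and were not members.

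The site of highest fold was chr8:120701588-120706593, in the first intron of Gm20388 (ENSMUSG00000092329.1), a gene model 4434882 bp long that runs across its neighbours. No other protein-coding gene covered the site, so it counted as intragenic by this model alone. WT replicates 1 to 3 had a fold of 4.88, 4.11 and 2.75, and KO replicates 2.74, 3.27 and 2.99. The values of the genotypes overlapped. The next was chr4:119958956-119960922, in the first intron of Hivep3, which encodes a zinc finger protein. Its WT fold was 4.29, 4.19 and 3.01, followed by 3.14 and 3.52 in KO replicates 1 and 3, with no peak in KO replicate 2.

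Fibcd1, which encodes an acetyl-group receptor, had a site at chr2:31822727-31823319 in intron 4. Its fold was 2.59, 4.83 and 3.8 in WT, and no KO list held a peak there. A site shared by Fam53b and the long Fgfr2 model, chr7:132718332-132721986, had a fold of 3.43, 3.92 and 3.52 in WT and 3.11, 3.23 and 2.69 in KO. Itpr1 encodes a calcium channel of the endoplasmic reticulum. Its site, chr6:108549184-108550901, lay in a non-coding part of an exon, with a fold of 4.04, 2.71 and 3.88 in WT and 2.58 and 3.75 in KO replicates 1 and 3. The last of the 6 lay at chr16:10515730-10518648, within both Dexi and Ciita, and Ciita encodes the master activator of MHC class II genes. Its WT fold was 3.40, 4.41 and 2.79, and its KO fold 2.90, 2.82 and 2.85.

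**Figure D1:**
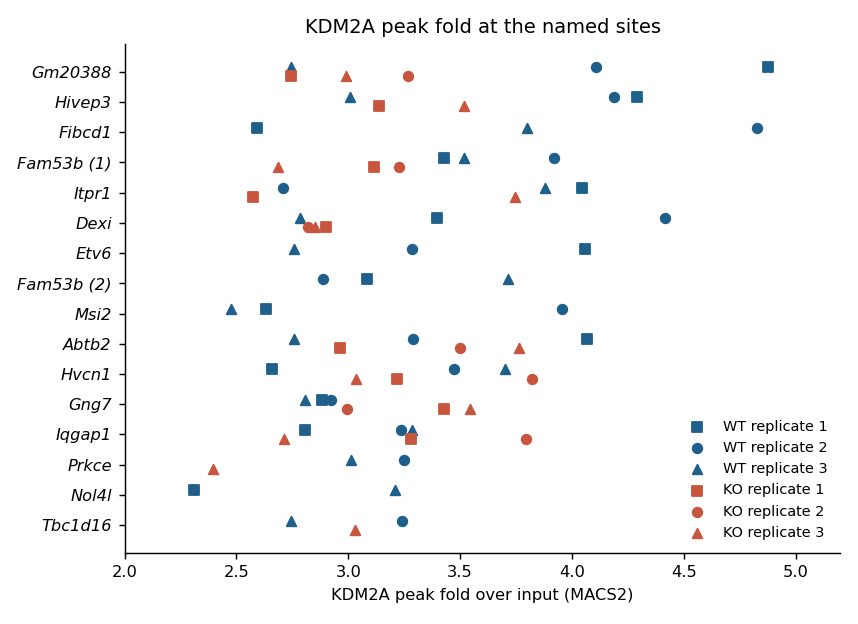
KDM2A peak fold over input (horizontal axis, the authors' MACS2 value, linear and starting at 2) at the 16 named distal intragenic sites, with 1 point per library that held a peak there (blue WT, red KO; the symbol gives the replicate). Fibcd1, Etv6, the second Fam53b site, Msi2 and Nol4l have no KO point, and at Gm20388 the WT points reach from 2.75 to 4.88.

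The spread between WT replicates at one site was thus often as large as the difference between sites. At Fibcd1 the mean fold was 3.74 ± 1.12, at Gm20388 3.91 ± 1.08 and at the Fam53b site 3.62 ± 0.261 (SD, n = 3 each). The other sites in all 3 WT lists and no KO list with the highest fold were in Etv6 (4.06, 3.28 and 2.76), which encodes an ETS family repressor, a second site in Fam53b (3.08, 2.89 and 3.71), and Msi2 (2.63, 3.95 and 2.47), which encodes an RNA-binding protein. In all, 57 sites were in 3 WT lists and no KO list, and 61 were in all 6 lists. Among those in all 6, the highest KO folds were at Abtb2 (2.96, 3.50 and 3.76), Hvcn1 (3.22, 3.82 and 3.03), Gng7 (3.43, 2.99 and 3.54) and Iqgap1 (3.28, 3.796 and 2.71). In WT these sites had 4.07, 3.29 and 2.76 at Abtb2, and 2.66, 3.47 and 3.70 at Hvcn1. Gng7 had 2.88, 2.92 and 2.80, and Iqgap1 had 2.80, 3.24 and 3.28. Hvcn1, the voltage-gated proton channel of B cells, and Iqgap1, a cytoskeletal scaffold, had overlapping values in the genotypes. Gng7 encodes a G protein subunit. These sites were ranked by their KO fold, so neither genotype's level is a result there.

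The KO KDM2A lists had no part in choosing the sites, and they held a peak at a minority of them. A KO peak was found at 25.4%, 25.6% and 38.4% of the distal intragenic sites in KO replicates 1 to 3. The same lists held a peak at 68.6%, 66.3% and 77.7% of promoter sites and at 34.9%, 29.2% and 47.5% of distal intergenic sites. The share at distal intragenic sites was below that at promoter sites by 41.1 ± 1.97 points and below that at distal intergenic sites by 7.39 ± 3.32 points (SD, n = 3), in 3 of 3 KO libraries each. A two-sided exact sign-flip permutation test gave p = 0.25 for each difference (adjusted p = 0.278 over the 10 tests of the family), the smallest p that 3 libraries allow. KO replicate 3, whose share was highest in each class, also had the longest KO list, with 21705 peaks against 15667 and 15387, and with each KDM2A list cut to its strongest peaks at 1 common length, which left 341 sites, the differences were −37.0 and −9.97 points. When 50% of the site had to lie under peaks they were −26.2 and −4.66 points. An exact sign-flip test gave p = 0.25 for each of these as well.

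**Figure D2:**
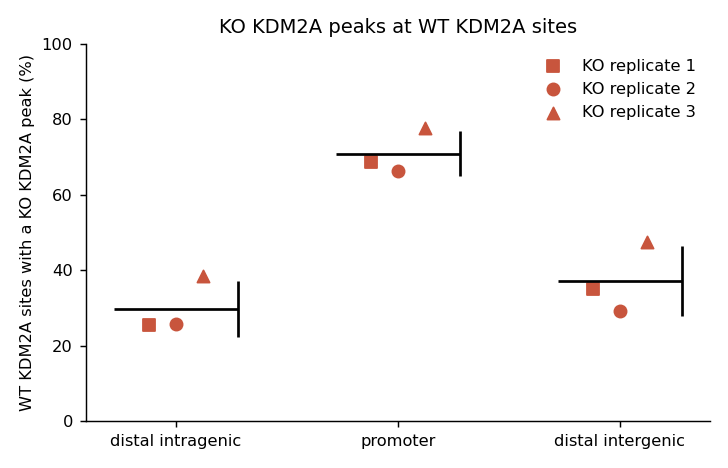
Percent of WT KDM2A sites that overlapped a peak of each KO KDM2A list (vertical axis), for distal intragenic, promoter and distal intergenic sites. Symbols are the 3 KO libraries, horizontal lines their mean and vertical lines ± 1 SD. Every KO library sits lowest at the distal intragenic sites, between 25.4% and 38.4%, and highest at promoters.

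Counted by site, 376 of 792 (47.5%) had no KO peak, 205 had a peak in 1 KO list, 130 in 2 and 81 in 3. A peak in at least 2 KO lists, the criterion used for WT, was met by 211 sites (26.6%), against 73.7% of promoter sites and 34.8% of distal intergenic sites. Sites in all 3 WT lists met it more often than sites in 2, at 52.2% and 14.8%. At promoters the corresponding values were 88.1% and 42.5% and at distal intergenic sites 64.1% and 17.3%, so the distal intragenic share was the lowest of the 3 classes at equal WT recurrence. Applied to the KO lists, the selection rule gave 340 distal intragenic sites. Of these, 208 (61.2%) had a peak in at least 2 WT lists and 64 (18.8%) in none. Sites without a counterpart in the other genotype were found in both directions, and the WT lists were the longer ones. The WT KDM2A lists held 2120 to 3253 peaks centred in the eligible sequence and the KO lists 1133 to 1982. WT chose the sites, so the levels of the genotypes were not tested against each other.

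H3K36me2 was then measured at the same sites, in lists that had no part in the choice. The labels did not say whether these libraries share animals with the KDM2A libraries, and inputs of a genotype may have served both antibodies. Effects of shared animals or inputs were not tested. In WT, 54.3%, 52.4% and 54.7% of the distal intragenic sites overlapped an H3K36me2 peak, and in KO 47.3%, 16.3% and 19.8%. Every KO library was below every WT library, and the KO male library was close to WT while the female KO libraries were far lower. WT averaged 53.8% ± 1.22 (SD, n = 3) and KO 27.8% ± 17.004 (SD, n = 3), a difference of −26.0 points. The two-sided exact permutation test gave p = 0.1 (adjusted p = 0.167), and groups of 3 and 3 cannot give less. Within the male pair the difference was −6.94 points, and between the means of the female libraries −35.5 points. Without the male KO library it was −35.7 points. With stricter peaks, those at a −log10 q of at least 2 in the lists of both antibodies, 201 sites were left and it was −13.6 points (exact permutation test, p = 0.2).

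The part of the surrounding 5 kb that lay under H3K36me2 peaks gave the same order. Averaged over all 792 sites, WT replicates 1 to 3 had 33.4%, 33.9% and 35.0% and KO replicates 24.5%, 8.68% and 9.33%. The means were 34.1% ± 0.808 and 14.2% ± 8.97 (SD, n = 3 each), a difference of −19.9 points (exact permutation test, p = 0.1, adjusted p = 0.167), or −10.4 points with the stricter peaks (exact p = 0.1). The difference was −8.84 points in the male pair and −25.4 points in the female libraries.

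All eligible gene sequence also lay less under peaks in KO, with 4.12%, 5.603% and 5.49% in WT and 3.65%, 1.59% and 1.38% in KO. Divided by this value of its own list, coverage at the sites was 8.10, 6.05 and 6.37 times the eligible level in WT and 6.73, 5.46 and 6.78 times in KO. The genotypes overlapped on this scale. WT averaged 6.84 ± 1.10 (SD, n = 3), KO averaged 6.32 ± 0.747 (SD, n = 3), and the exact permutation test gave p = 0.6 (adjusted p = 0.6). In WT, promoter windows (18.1%) and distal intergenic windows (57.3%) also lay above the eligible level (5.07%), so an excess over it was not particular to the distal intragenic sites. At the 201 sites and peaks of the stricter lists the difference was −9.42 (exact permutation test, p = 0.1) and the genotypes did not overlap. The lists had 85387 to 94136 H3K36me2 peaks in WT and 106720, 37447 and 45180 in KO, and the part of sequencing depth was not tested, since read counts were not used here. With the lists of each antibody cut to 1 common length in this way, and so over 341 sites, the genotype difference was −18.3 points for the share of sites and −16.2 points for window coverage (exact permutation test, p = 0.1 each). For coverage over the eligible level it was −3.00 (exact p = 0.3).

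**Figure D3:**
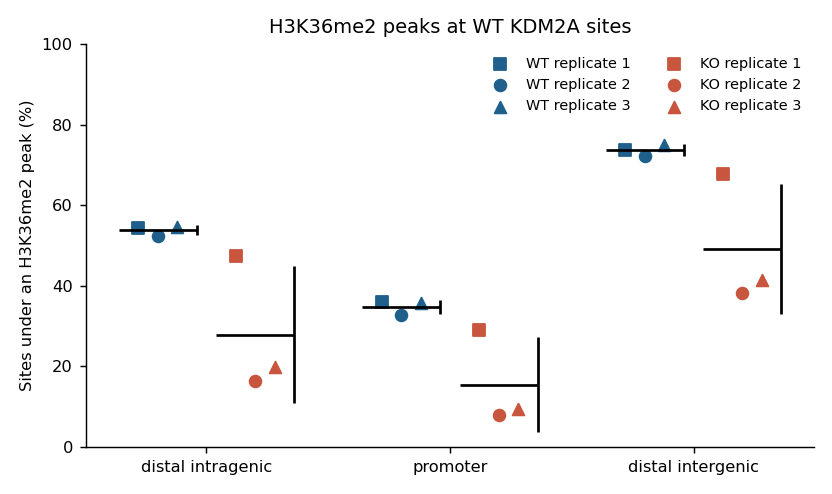
Percent of WT KDM2A sites that overlapped an H3K36me2 peak (vertical axis) in each library, by class of site (blue WT, red KO; symbols give the replicate, horizontal lines the mean, vertical lines ± 1 SD). The distal intragenic sites lie between promoter and distal intergenic sites in each library, and KO replicate 1 (male) sits at 47.3%, near the WT values.

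Compared with other KDM2A sites, the distal intragenic sites carried an intermediate level of the mark. In the 3 WT libraries 35.9%, 32.7% and 35.7% of promoter sites and 73.8%, 72.2% and 75.03% of distal intergenic sites overlapped an H3K36me2 peak. In KO the shares were 29.1%, 8.02% and 9.36% at promoter sites and 67.7%, 38.3% and 41.5% at distal intergenic sites. Distal intragenic sites exceeded promoter sites by 15.7 points in the mean over the 6 libraries (range 8.27 to 19.7) and lay 20.6 points below distal intergenic sites (range −22.0 to −19.5). Coverage of their 5 kb windows exceeded that of eligible sequence by 20.5 points (range 7.09 to 29.5). Each of these held in 6 of 6 libraries (two-sided exact sign-flip permutation test, p = 0.031 each, the smallest p that 6 libraries allow, adjusted p = 0.104 each), so none passed a threshold of 0.05 after adjustment over the 10 tests. With the stricter peaks the excess over promoter sites was 7.31 points and that over eligible sequence 8.09 points. Within the male pair the excess over promoter sites was 18.4 points in WT and 18.3 in KO, and in the female libraries 19.4 and 9.36 points.

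H3K36me2 coverage at the centre of the sites was above that of their flanks in each WT library but not in every KO library. Coverage of the central 1000 bp minus coverage from 5 to 10 kb away on both sides was 7.10, 3.81 and 5.75 points in WT and 2.38, −0.299 and −0.675 points in KO. The mean over the 6 libraries was 3.01 points, above 0 in 4 and below 0 in 2 (exact sign-flip permutation test, p = 0.125, adjusted p = 0.179). It was 1.30 points at the sites in all 3 WT lists and also 1.30 points without WT KDM2A replicate 1, when a peak in both other WT lists was needed. At the 201 sites of the stricter lists it was −0.018. WT averaged 5.55 ± 1.65 (SD, n = 3) and KO 0.468 ± 1.66 (SD, n = 3), a genotype difference of −5.08 points (exact permutation test, p = 0.1, adjusted p = 0.167), or −1.79 with the stricter lists (exact p = 0.5). It was −4.72 points in the male pair and −5.27 points in the female libraries. At promoter sites the sign in WT was opposite, with 13.1% ± 0.843 of the central bases and 15.7% ± 1.42 of the flanks under peaks (SD, n = 3). At distal intergenic sites the sign in WT was the same as at the distal intragenic sites and the values were larger, at 10.4, 5.89 and 7.71 points. In KO replicate 3 the signs differed, with the distal intergenic value above 0 and the distal intragenic value below 0.

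**Figure D4:**
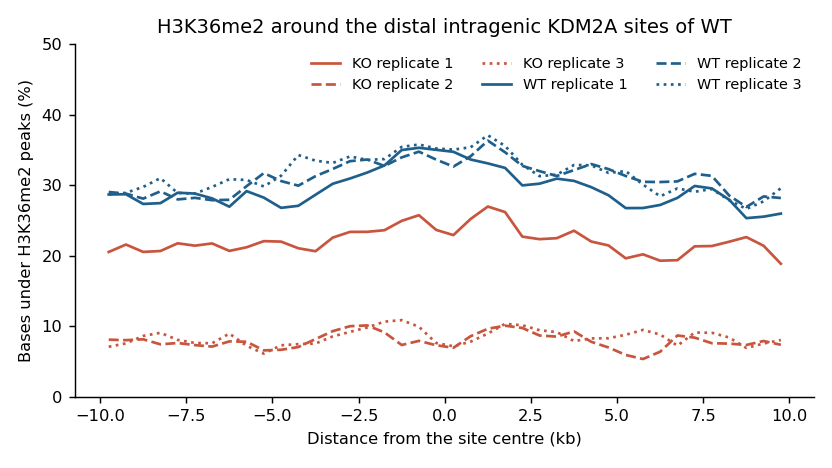
Percent of bases under H3K36me2 peaks (vertical axis) in 500 bp steps from 10 kb before to 10 kb after the centre of the 792 distal intragenic KDM2A sites, in genome orientation (blue WT, red KO; line styles give the replicate). The WT lines run between 25.3% and 37.1%, KO replicate 1 between 18.9% and 27.0%, and KO replicates 2 and 3 between 5.35% and 10.9%.

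Each site was also tested on its own, over all KDM2A sites of WT whose 5 kb windows averaged at least 5% coverage over the 6 H3K36me2 libraries. Of the 9740 sites tested, limma with Benjamini-Hochberg adjustment called 0 lower and 0 higher in KO (0%). Of the 792 distal intragenic sites 547 entered the test and 0 were called. The lowest adjusted p among them was 0.0561. On simulated data with 200 changed sites among 9740, the test recovered 0% of changes of 40 points and 96% of changes of 100 points. Its power when more sites change was not tested, and a site that was not called may still have changed. At an unadjusted p under 0.05, 237 of the 547 (43.3%) were lower and 0 higher, where the background over all sites tested was 29.2% lower and 0.0308% higher. Every KO library was below every WT library at 210 (38.4%), against 30.8% of all sites tested, and above at 0, against 0.133%. A window that is high in WT alone can pass the filter on mean coverage, so the 547 are not a sample of all 792. Without this filter 658 distal intragenic sites entered limma, and 215 were lower at an unadjusted p under 0.05. Over all sites it was 2465 of 12627. Of the other 245 sites, 134 had no H3K36me2 peak in the window in any library.

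The per-site calls depended on the window and on the male KO library. With a 10 kb window 163 of 554 distal intragenic sites were called lower (1524 of 9942 sites in all), and without KO replicate 1 of H3K36me2 139 of 545 (1360 of 9635 in all). When each list was divided by its coverage of eligible sequence, 0 were called, and at an unadjusted p under 0.05 there were 27 lower and 12 higher of 547, against 440 and 167 of all 9740 sites. Leaving out WT KDM2A replicate 2 gave 11 lower of 333, against 73 of all 7436 sites.

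The largest falls among sites where the genotypes did not overlap were in introns of 3 genes. At chr17:86300828-86302523, in the first intron of Prkce, a gene for protein kinase C epsilon, WT coverage was 82.3%, 100% and 85.0% and KO coverage 9.64%, 0% and 5.2%. All KO libraries were low here, the male one included. The change was −84.1 points (SE 18.97, limma adjusted p = 0.0561). At chr2:153509554-153511020, in the first intron of Nol4l, WT coverage was 96.9%, 100% and 81.5% and KO coverage 29.6%, 0% and 5.08%, a change of −81.3 points (SE 19.3, limma adjusted p = 0.0561). At chr11:119165228-119166371, in the third intron of Tbc1d16, a gene for a RAB GTPase-activating protein, coverage reached 100% in all 3 WT libraries and 68.1%, 0% and 0% in KO. There the male KO library was at over 60% while the female ones had no peak. None of the 547 sites tested had every KO library above every WT library.

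The strongest KDM2A sites differed widely in the mark. At the Hivep3 site WT coverage was 100%, 75.3% and 100% and KO coverage 76.4%, 58.0% and 78.5%, where the ranges overlapped. At Gm20388 WT had 63.3%, 78.0% and 100% and KO 77.4%, 25.6% and 40.8%. The site in Dexi and Ciita had 0%, 0% and 4.84% in WT and 0% in every KO library. This last site overlapped an H3K36me2 peak in 1 WT library. The highest KDM2A folds were thus found both where H3K36me2 coverage was high and where it was almost absent.

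Sites were grouped by whether at least 2 libraries of a genotype had an H3K36me2 peak. There were 178 sites (22.5%) with the mark in both genotypes, 252 (31.8%) in WT only, 5 in KO only and 357 (45.1%) in neither. A KDM2A peak in at least 2 KO lists was present at 34.8% of the sites marked in both, at 28.2% of those marked in WT only and at 21.6% of those marked in neither. The median WT KDM2A fold was 2.76 in the first and the second of these groups and 2.70 in the last, and the mean CpG number was 4.16, 4.65 and 5.15. The groups were made from peak calls of the H3K36me2 libraries, and the KDM2A values came from the KDM2A libraries. All these values are a description.

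The 792 sites lay in 494 protein-coding genes, 350 of which held 1 site, 69 held 2, 35 held 3 and 40 held 4 or more. Many sites came in groups. When sites less than 12.5 kb apart were joined, 332 of the 792 fell into groups of 2 or more and 188 into the 46 groups of 3 or more. Chromosome 11 held the most, 97 sites or 3.69 per Mb of eligible sequence.

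The Gm20388 model held most, with 35 sites, but it spans several genes and only 18 of its sites lay in no smaller coding gene. These 18 counted as intragenic by this model alone. For 12 of these the nearest other protein-coding TSS was that of Irf8, an interferon regulatory factor needed in B cell development, at 32.3 to 110 kb. The group with the most sites was there, 10 at chr8:120774606-120833033, 8 of them with H3K36me2 in at least 2 WT libraries and 7 in at least 2 KO libraries. Irf8 was named after its values were seen. Gse1, within the same model, held 13 sites in 236 kb of eligible sequence.

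Fgfr2 held 10 sites by a model of 2.96 Mb that overlaps Fam53b, and 1 of them lay in no smaller gene. Armc9 held 9, of which 8 had H3K36me2 in at least 2 WT libraries and 4 in at least 2 KO libraries. Itpkb, which encodes the kinase that makes inositol tetrakisphosphate and restrains calcium signalling in B cells, held 8 sites in 42.1 kb, or 190 per Mb. All 8 were in all 3 WT lists and 5 were in at least 2 KO lists. Its strongest site, chr1:180387247-180389114 in the second intron, had a KDM2A fold of 3.81, 3.75 and 2.64 in WT and 2.89, 3.28 and 3.26 in KO. H3K36me2 coverage there was 60.9%, 49.5% and 43.0% in the WT libraries against 11.2%, 0% and 0% in KO, a difference of −47.4 points that did not pass the threshold (SE 15.5, limma adjusted p = 0.0683). Hivep3 and Ksr1, the latter a scaffold of the MAP kinase pathway, also held 8 sites each, with the mark in at least 2 WT libraries at 8 of 8 in each gene. In at least 2 KO libraries it was found at 7 of the Hivep3 sites and 5 of the Ksr1 sites.

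Genes were then grouped into 8 lists by what they are known to do. Over all protein-coding genes, 494 of the 8823 with eligible sequence (5.599%) held a site, and there were 1.57 sites per Mb. Among 30 B cell transcription factors, 24 had eligible sequence and 11 (45.8%) held 24 sites, or 11.2 per Mb. Bach2, a repressor that restrains plasma cell differentiation, held 6 sites and none was in 2 KO lists. Its strongest, chr4:32390213-32391811 in the second intron, had a fold of 3.14, 3.77 and 3.04 in WT and 2.61 in KO replicate 3 only. Foxp1 held 4 sites, and Ets1 and Runx3 held 3 each. All 3 Runx3 sites were also in at least 2 KO lists, as was 1 of the 3 Ets1 sites.

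Irf4, needed for plasma cells and germinal centres, held 2 sites in 7.67 kb of eligible sequence. The stronger, chr13:30765816-30767160 in a non-coding part of an exon, had a fold of 2.62, 3.12 and 3.06 in WT and no KO peak. The other, chr13:30759131-30764197 in intron 8, had 2.62, 3.07 and 2.90 in WT and 2.68 and 2.63 in KO replicates 2 and 3. Rel and Nfkb1, both NF-kB subunits, held 1 each. The Rel site, chr11:23753445-23755121, had 4.26 and 2.69 in WT replicates 1 and 3 and 2.54 in KO replicate 3. Batf, an AP-1 factor needed for class switching, held 1 site with a fold of 2.68, 4.27 and 3.25 in WT and 3.17, 2.96 and 2.48 in KO. Of the 24 sites on this list, 8 had H3K36me2 in at least 2 WT libraries and 2 in at least 2 KO libraries, against 430 and 183 of all 792. A KDM2A peak in at least 2 KO lists was present at 7 of the 24, against 211 of all 792.

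Genes of B cell receptor and coreceptor signalling held 41 sites in 15 of 27 eligible genes (55.6%), or 15.6 per Mb. Beside Itpkb these were most numerous in Pik3ap1, an adaptor of phosphoinositide 3-kinase signalling, with 7 sites over 53.1 kb, of which 5 were in at least 2 KO lists and 2 had the mark in at least 2 WT libraries. Nfatc1, a calcium-dependent transcription factor, held 5, none of them in 2 KO lists and none with the mark in 2 libraries of either genotype. Swap70, Vav2 and Inpp5d held 3 each and Vav1 held 2. Vav1 encodes an exchange factor below the receptor, and its site in the first intron, chr17:57288250-57291295, had a fold of 3.38, 3.15 and 3.05 in WT and 2.63, 2.78 and 2.86 in KO. Over the list 19 of 41 sites were in at least 2 KO lists, against 211 of all 792. However, 21 of the 41 were in all 3 WT lists, against 251 of all 792, and such sites had KO peaks more often.

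Genes of CD40 and interleukin 4 signalling held 5 sites in 4 of 10 eligible genes, 2 in the kinase gene Jak1 and 1 each in Traf1, Traf2 and Traf3, which encode receptor adaptors, or 26.1 per Mb of the short sequence of 0.191 Mb. The other lists held 0 or 1 site each, most of them in little sequence. T cell genes held 1 site in 11 eligible genes, or 1.21 per Mb. The writers and erasers of H3K36 methylation held 1 site in 11 eligible genes, in Kdm4b, or 3.09 per Mb. Neuronal genes held 0 in 20 genes and 17.9 Mb. Myeloid genes held 0 in 5 genes and hypoxia response genes 0 in 11, with only 0.197 and 0.157 Mb available. The lists were drawn up with results of these data known, and no test was made of the differences between them.

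**Figure D5:**
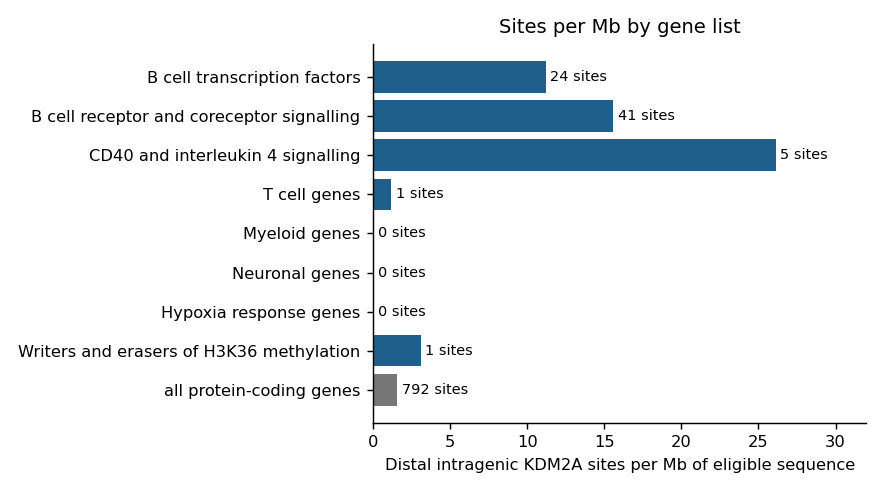
Distal intragenic KDM2A sites per Mb of eligible gene sequence (horizontal axis, linear from 0) for the 8 gene lists and for all protein-coding genes (grey), with the number of sites written at each bar. The 3 lists of B cell genes stand at 11.2 to 26.1 per Mb, all genes at 1.57, and the myeloid, neuronal and hypoxia lists hold 0 sites.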

How the data were processed

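KDM2A and H3K36me2 ChIP-seq was analysed from 12 broad peak lists, 3 per genotype and antibody. The 6 input samples, the background in peak calling, were not analysed here. Per the labels and the study's methods, alignment was to GRCm38 with BWA, within nf-core/chipseq, and MACS2 made 1 broad list per library without pooling. MACS2's version and the read filters are not given in the sources used here. The deposited fold is the authors' ratio of signal over background for each peak and is not normalized between libraries. The deposited −log10 p and −log10 q values were used only to make stricter and equal-sized lists. Depth is unknown, as the lists give no read numbers, and no counting interval can be given. A shallower library can hold fewer and stronger peaks.

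Sites were built in Python 3.11.15 (numpy 2.4.6, pandas 2.3.3) as described in the report, with H3K36me2 taken as the percent of a 5 kb window under peaks. Members, gene lists and motifs were chosen with earlier results of these data known. A site in several genes was assigned to the shortest, and sequence was read with pysam 0.24.0. Library values were compared by two-sided exact permutation or sign-flip tests. Per-site coverage was fitted with limma 3.58.1 in R 4.3.3 (eBayes with a trend, no log and no pseudocount). P-values were adjusted by Benjamini-Hochberg, with a threshold of 0.05. The limma test was tested on simulated data with 200 changed sites among 9740.

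Sites were named by rule. They were the 6 of highest mean WT fold among those in 3 WT lists, the 4 of highest WT fold in 3 WT lists without a KO peak, the 4 of highest KO fold in all 6 lists, and 3 per direction of largest H3K36me2 change among sites whose genotypes did not overlap. Named genes were the 5 with most sites and up to 8 per list, and a few of these are not reported here. Alternatives were stricter peaks, equal-sized lists, over 20 kb from a TSS, all 3 WT lists, overlap of 50% of the site, other windows, other values or filters in limma, a replicate block, and leaving out each library.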

Additional observations from a re-analysis of the deposited data

How the results depend on the processing

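The number of distal intragenic sites was 201 with stricter peaks (−log10 q of at least 2), 341 with equal-sized lists, 304 over 20 kb from a TSS, 251 when all 3 WT lists were required, and 363 to 487 when a WT KDM2A library was left out. Stricter and equal-sized lists were made for both antibodies, so their H3K36me2 values below are over those 201 and 341 sites. The differences from promoter sites, distal intergenic sites and eligible sequence kept their sign in each alternative run, but with stricter peaks their sizes were 7.31, −16.1 and 8.09 points. With a replicate block they stayed at 15.7, −20.6 and 20.5 points with an exact p of 0.25, the smallest that 3 numbers allow. Coverage of same-numbered WT and KO libraries was hardly correlated, at 0.002, 0.034 and −0.033 after removing the mean of each genotype. These values cannot settle whether the libraries share a batch or a day. The block in limma also called 0 sites. The KO KDM2A shares differed by −26.2 and −4.66 points from promoter and distal intergenic sites when 50% of the site had to lie under peaks. For these shares no paired analysis was possible because only KO lists enter them. Leaving out 1 library gave 14.9 to 17.8 points, −21.8 to −19.2 points, and 18.7 to 23.2 points, and without an H3K36me2 library the exact p was 0.0625, the smallest that 5 libraries allow. Coverage over the eligible level differed by −0.52 between genotypes, by 0.12 without WT H3K36me2 replicate 1, as low as −0.91 without another library, by −3.00 with equal-sized lists, by −1.45 over the site itself, and by −9.42 with stricter peaks, where the genotypes no longer overlapped (exact p = 0.1). The H3K36me2 share differed between genotypes by −13.6 points with stricter peaks. With stricter peaks, centre minus flank was −0.018.

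In limma, the number of distal intragenic sites called lower in KO was 0 in the fit described, 20 with log2 of the strongest fold in the window, 163 with the 10 kb window, and 0 to 139 when a library was left out, highest without the male KO library. Over all sites the numbers were 452, 1524 and 0 to 1360, and 3 sites were called higher on the log2 fold. The cause was not tested. The changes at the Prkce, Nol4l and Tbc1d16 sites passed the threshold in 7 of 38 pairs of site and alternative that gave a value, and their sign was largely fixed by how the sites were chosen. Depth is unknown, so a site without a peak may hold signal below the caller's limit.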
